A study of Homo sapiens with 12 samples.

Results

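The ATF4 amino acid response was followed in RD and Rh30 rhabdomyosarcoma cells after stable depletion of the histone demethylase KDM3A. The gene set holds 46 genes out of 65975 gene identifiers in the table, picked by symbol as ATF4 targets, enzymes of amino acid synthesis, amino acid transporters and cytosolic tRNA synthetases. ASNS and GDF15 were taken into the set because their values differ between the lines, so their levels are described here without a test, and counts of called genes cover the other 44. The whole set was chosen with earlier results of these data known, so shares of called members also describe that choice. RD cells stand for FN-RMS, the disease without a PAX-FOXO1 fusion, and Rh30 cells for FP-RMS, which carries one. Both were transduced with lentivirus bearing a non-targeting control shRNA (Scramble) or an shRNA against KDM3A (KDM3A-sh2). All cells had been selected with puromycin. Each of the 4 groups has 3 libraries. RD cells were grown in DMEM and Rh30 cells in RPMI, media with different amino acid content, so line and medium cannot be told apart in any comparison between the lines. Both media were supplemented with fetal bovine serum and MEM non-essential amino acids. One line stands for each subtype and 1 shRNA for KDM3A depletion.

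ATF4 is a basic leucine zipper transcription factor whose protein is made mainly when the translation initiation factor eIF2 is phosphorylated. That phosphorylation is carried out by kinases that sense uncharged tRNA (GCN2, gene EIF2AK4), unfolded protein in the endoplasmic reticulum (PERK, gene EIF2AK3) and other stresses. ATF4 protein, as a dimer with a C/EBP factor, binds composite elements near the start sites of genes for amino acid synthesis, amino acid uptake and tRNA charging, and it also drives feedback genes that restore translation. RNA-seq reads the transcripts of this response and not the ATF4 protein.

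The composite element can be read in many of the promoters. RefSeq windows of 300 bases (250 before to 50 after a transcription start, GRCh38.p14) were at hand for 37 of the 46 members. The letters TGATGNAA were searched on both strands and stand in the windows of 15 of these 37 members, against 3.62% of all 35116 windows and 4.46% of all 27305 genes with a window. Members may have up to 4 windows each, and part of them are known as ATF4 targets through such sites, so the share describes the choice of genes. In the 12 synthetases, 10 had a window and 7 of these hold the letters. The 3 stretches of 250 bases before the start are shown because they belong to members with large changes described below, in gene orientation and with the matching letters in capitals (TTGCATCA is TGATGCAA read on the other strand).
ASNS (chr7:97872409-97872658, minus strand): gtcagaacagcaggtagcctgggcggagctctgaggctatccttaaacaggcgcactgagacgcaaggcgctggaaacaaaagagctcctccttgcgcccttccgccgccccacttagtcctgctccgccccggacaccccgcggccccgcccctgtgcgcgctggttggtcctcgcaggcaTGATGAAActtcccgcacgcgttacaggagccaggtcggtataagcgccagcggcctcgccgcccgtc
CHAC1 (chr15:40953221-40953470, plus strand): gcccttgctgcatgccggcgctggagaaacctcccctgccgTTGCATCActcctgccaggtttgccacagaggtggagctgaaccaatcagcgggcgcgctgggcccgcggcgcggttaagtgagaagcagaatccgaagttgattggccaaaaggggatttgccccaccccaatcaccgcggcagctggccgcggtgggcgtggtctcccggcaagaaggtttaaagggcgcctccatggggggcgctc
AARS (chr16:70289507-70289756, minus strand): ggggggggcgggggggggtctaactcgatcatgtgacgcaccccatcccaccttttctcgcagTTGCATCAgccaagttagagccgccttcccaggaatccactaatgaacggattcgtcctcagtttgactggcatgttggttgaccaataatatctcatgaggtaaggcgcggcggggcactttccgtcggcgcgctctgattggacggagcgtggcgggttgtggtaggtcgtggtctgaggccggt

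The next windows of 28 bases are printed on the strand that reads TGATGNAA, again with the element in capitals. Those of CARS, GARS, MARS and SLC7A1 belong to members that rose in RD, and those of SLC1A5 and MTHFD1L to members that were not called there.
CARS (chr11:3057408-3057435, plus strand): tcctagaatcTGATGCAAccgccgcccc
GARS (chr7:30594835-30594862, minus strand): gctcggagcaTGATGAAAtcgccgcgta
MARS (chr12:57488054-57488081, minus strand): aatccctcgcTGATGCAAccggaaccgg
SLC7A1 (chr13:29595664-29595691, minus strand): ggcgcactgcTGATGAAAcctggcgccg
SLC1A5 (chr19:46784894-46784921, minus strand): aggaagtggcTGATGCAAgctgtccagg
MTHFD1L (chr6:150866347-150866374, plus strand): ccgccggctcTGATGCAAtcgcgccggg

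The element thus stands in windows of genes that rose and of genes that were not called. Among tested members other than ASNS and GDF15, those with the element had a median log2 fold change of 0.45 in RD (14 genes) and those with a window but without it 0.24 (20 genes). In Rh30 the medians were -0.09 (14 genes) and -0.10 (21 genes). A match is a match of letters and not a measured binding site. ALDH1L2, SLC7A11, PYCR1, SHMT2, YARS, EIF4EBP1, LARS, PSPH and NUPR1 had no window and are in neither median. Their RD changes ran from 0.08 (LARS) to 1.92 (NUPR1), so the medians leave out some of the largest changes. Whether the element goes with a larger change was not tested.

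Expression was measured as FPKM, fragments scaled to exon length and to the size of the library, so that levels of different genes can be set side by side. KDM3A itself was at 33.5 ± 2.5 FPKM (SD, n = 3) in RD Scramble and 12.2 ± 1.09 FPKM with KDM3A-sh2, and at 29.7 ± 2.14 and 14.1 ± 1.15 FPKM in Rh30. Of 7 skeletal muscle lineage markers, 5 had a mean of at least 1 FPKM in every group, and MYF5 and MYF6 were under it. Their summed level was 2122.7 to 2342.8 FPKM in RD Scramble and 2628.7 to 2751.4 with KDM3A-sh2, and 2452.5 to 2724.4 and 2829.6 to 2861.0 in Rh30. The markers did not move one way, since the mean levels of MYOD1 and MYOG were lower with KDM3A-sh2 in RD (133.8 and 112.8 FPKM, 184.4 and 167.3 FPKM) and higher in Rh30 (769.7 and 930.5 FPKM, 690.6 and 1016.8 FPKM). DES and CHRNA1 had the opposite order in each line, and CDH15 was lower with KDM3A-sh2 in both. The sum of 4 endothelial markers was at most 4.65 FPKM, that of 3 epithelial markers at most 7.36 FPKM (nearly all EPCAM, in Rh30) and that of 3 blood markers at most 0.0933 FPKM. Summed FPKM ran from 1198300 to 1379197 per library, and FPKM do not hold the read number. Relative depth estimated from the lowest values was 1.05 to 1.21 in RD Scramble, 0.861 to 1.00 in RD KDM3A-sh2, 0.998 to 1.02 in Rh30 Scramble and 0.943 to 0.993 in Rh30 KDM3A-sh2. The part of depth and of the muscle genes in the results was not tested. In bulk RNA, a change in the share of cells and a change per cell cannot be told apart.

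In RD cells the set moved upward with KDM3A-sh2. Its members were chosen with earlier results of these data known, so shares set against all genes describe the chosen set. Of the 43 members tested, 32 rose, 2 fell (DDIT4 and CBS) and 9 were not called, with a median log2 fold change of 0.34 against 0.01 over all 17988 genes tested. Over all those genes 41.1% were called, 21.6% higher and 19.5% lower. In Rh30 cells 8 members rose, 14 fell and 21 were not called, with a median of -0.04 against 0.03 over all 17803 genes tested, where 28.5% were called, 15.3% higher and 13.2% lower. Calls are limma adjusted p-values under 0.05, two-sided and adjusted over all genes tested, on log2(FPKM + 1), with a mean of at least 1 FPKM. The sources do not say that the 3 libraries of a group are separate cultures, so p-values measure the spread between these libraries, and an exact permutation test of 3 against 3 cannot give a p below 0.1. The column names of the 3 Rh30 Scramble libraries all end in the same number, unlike those of the other groups. What that number stands for is not stated, and the sample titles call the libraries replicates. VLDLR in RD and ALDH1L2 in Rh30 were under the filter, and NUPR1 in RD and CHAC1 in Rh30 passed it only through the group where they are high. Without NUPR1, 31 members rose in RD, and without CHAC1, 13 fell in Rh30. With a change of at least 0.58 (1.5-fold) required as well, 13 members were higher and 0 lower in RD, and 1 higher and 3 lower in Rh30.

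**Figure D1:**
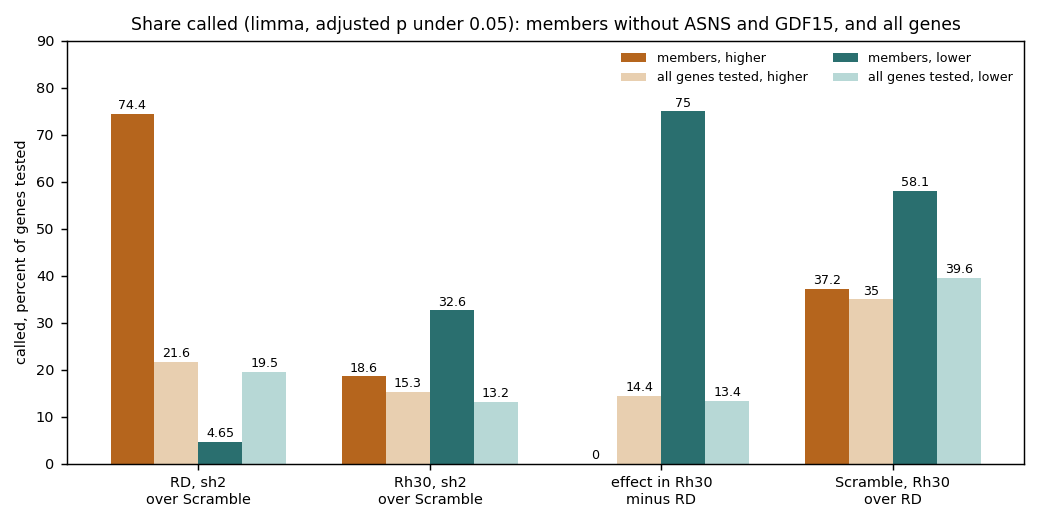
Bars give the percentage of genes tested that limma called higher or lower (adjusted p under 0.05) in 4 comparisons, dark for the 44 members other than ASNS and GDF15 and pale for all genes tested. In RD 74.4% of the tested members were called higher against 21.6% of all genes, and in the difference between lines 75.0% were called lower against 13.4%. Members were chosen with earlier results of these data known, so these shares describe the chosen set.

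The lines were then set against each other. The difference of the KDM3A-sh2 effect (Rh30 minus RD) was lower than 0 by the test in 33 of the 44 members and higher in 0, with a median of -0.45 against 0.02 over 18517 genes, where 27.8% were called, 13.4% lower and 14.4% higher. At an unadjusted p under 0.05 the counts were 35 lower and 0 higher, and an F test of each gene on unlogged FPKM called 2 members higher (DDIT3 and SLC7A1). ALDH1L2 and VLDLR reached the filter here only through the line where they are high, and without them 32 members were lower. In RD and Rh30 together, 8 members rose in both lines (AARS, ALDH18A1, DDIT3, NUPR1, PSPH, PYCR1, SLC7A1 and TRIB3), 10 rose in RD and fell in Rh30 (ATF4, CHAC1, MARS, MTHFD2, NARS, PSAT1, SARS, SHMT2, TARS and YARS), and DDIT4 fell in both. These are counts of 42 members tested in both lines, and of all 15970 genes tested in both 6.51%, 2.00% and 6.84% had those calls. Without NUPR1 and CHAC1 the first counts were 7 and 9. Of the 22 calls in Rh30, 14 were kept in each of 13 alternative analyses, and those of CHAC1, MARS, NARS, NUPR1, PSPH, SARS, SHMT2 and YARS were each lost in at least 1. The number of lower calls in Rh30 was 9 without Scramble replicate 1. It was 9 when KDM3A-sh2 replicate 1 was left out and 8 when KDM3A-sh2 replicate 3 was.

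**Figure D2:**
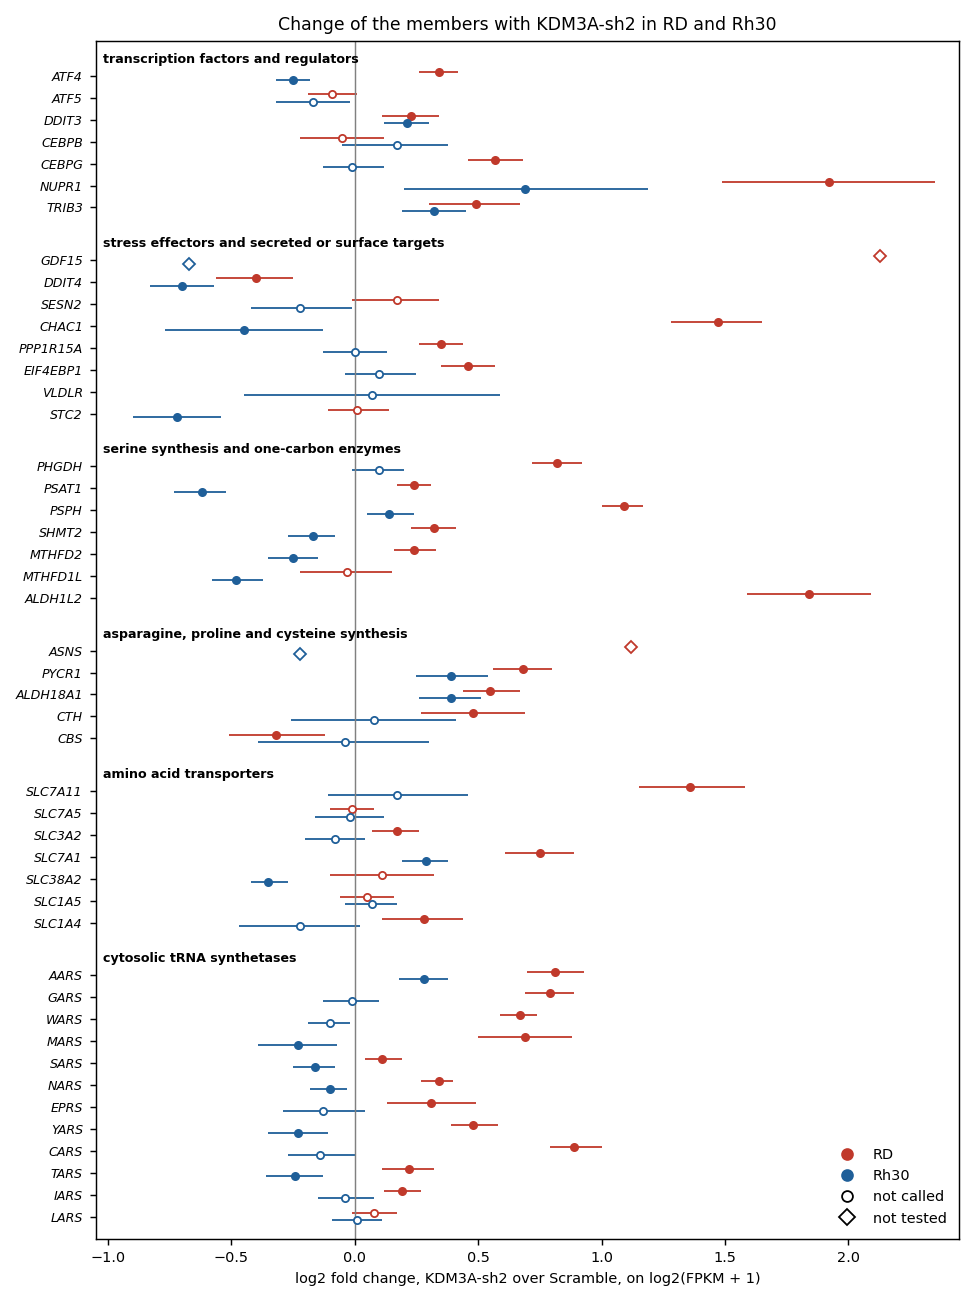
Points give the log2 fold change of KDM3A-sh2 over Scramble on log2(FPKM + 1) for each member, red for RD and blue for Rh30, with 95% confidence intervals from limma (3 libraries per group). Filled circles are called, open circles are not, and diamonds (ASNS and GDF15) were not tested. Most red points lie to the right of 0 and the blue points on both sides of it.

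Among the transcription factors, 5 of 7 rose in RD (71.4%) and 0 fell, against 21.6% and 19.5% of all genes. In Rh30, 3 rose (42.9%) and 1 fell (14.3%), against 15.3% and 13.2%. Both counts of rises include NUPR1, which reached the RD filter through KDM3A-sh2 alone and lost its Rh30 call without any 1 library. ATF4 (ENSG00000128272, chromosome 22 from 39519695 to 39522685 on GRCh38) was at 335.3, 352.5 and 337.9 FPKM in the RD Scramble libraries and at 440.8, 424.1 and 435.0 FPKM with KDM3A-sh2. In Rh30 its levels were 302.4, 309.4 and 304.0 FPKM with Scramble and 257.6, 259.2 and 251.9 FPKM with KDM3A-sh2. The KDM3A-sh2 libraries thus lay wholly above Scramble in RD and wholly below it in Rh30. The log2 fold change in RD was 0.34 (standard error 0.03, adjusted p = 0.000323), that in Rh30 was -0.25 (standard error 0.03, adjusted p = 0.0016), and their difference was -0.59 (adjusted p = 2.87e-06). Copies of the ATF4 sequence also carry reads, ATF4P3 at a mean of 9.15 FPKM and ATF4P4 at 3.36 FPKM, so some reads could be split among them.

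NUPR1, a small nuclear protein induced by stress, was scarce. It was at 0.842, 0.604 and 0.26 FPKM in RD Scramble and 4.41, 4.43 and 5.82 FPKM with KDM3A-sh2. Rh30 held 1.61, 1.6 and 0.697 FPKM with Scramble and 2.31, 2.49 and 3.21 FPKM with KDM3A-sh2. All KDM3A-sh2 libraries were higher than Scramble in both lines, by 1.92 in RD and, on the same log2 scale, by 0.69 in Rh30 (adjusted p = 0.0477). In RD it reached the filter through KDM3A-sh2 alone, so its RD change is given as a value without a test. The Rh30 call was lost without any 1 of the 6 libraries (adjusted p = 0.0626 to 0.129) and with a pseudocount of 0.1 (1.05, adjusted p = 0.059), while the difference between lines, -1.22, was called (adjusted p = 0.00813). With that pseudocount the RD change was 3.0 and the difference -1.94.

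The dimer partner CEBPG rose in RD by 0.57 (adjusted p = 0.000153) and was at -0.01 in Rh30, with a difference between lines of -0.57 (adjusted p = 6.93e-05). CEBPB, another partner of ATF4, was not called in either line (-0.05 and 0.17), and neither was ATF5, a close relative of ATF4 (-0.09 and -0.17). DDIT3, which encodes the stress factor CHOP, and TRIB3, a pseudokinase that binds ATF4, rose in both lines. Their changes were 0.23 and 0.21 for DDIT3 and 0.49 and 0.32 for TRIB3 in RD and Rh30, and the difference between lines was not called for either (95% intervals -0.15 to 0.11 and -0.36 to 0.02).

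Among the tested members, the stress effector CHAC1 had the largest difference between the lines (-1.92). GDF15 was taken into the set because it differs between the lines, so its contrast is only described. GDF15, a secreted cytokine of the TGF-beta family (ENSG00000130513, chromosome 19 from 18374731 to 18389176), was at 8.2, 8.95 and 9.27 FPKM in RD Scramble and at 38.5, 44.5 and 42.7 FPKM with KDM3A-sh2. Rh30 had 28.8, 26.5 and 24.4 FPKM with Scramble and 16.4, 16.0 and 16.5 FPKM with KDM3A-sh2. The groups did not overlap in either line, and the order of the shRNAs was opposite, with log2 fold changes of 2.13 and -0.67.

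CHAC1, an enzyme that degrades glutathione (ENSG00000128965, chromosome 15 from 40952962 to 40956519), had the same order of shRNAs in each line as GDF15. RD Scramble had 8.77, 7.98 and 9.1 FPKM and RD KDM3A-sh2 23.7, 27.7 and 25.3 FPKM. In Rh30 it was near the detection filter, at 1.49, 1.47 and 1.64 FPKM with Scramble and 0.935, 0.866 and 0.754 FPKM with KDM3A-sh2. All KDM3A-sh2 libraries lay above Scramble in RD and below it in Rh30. The RD change was 1.47 (standard error 0.08, adjusted p = 3.47e-05), and the difference between lines was -1.92 (adjusted p = 1.3e-06). In Rh30 it reached the filter through Scramble alone, so the Rh30 change of -0.45 (-0.78 with a pseudocount of 0.1) is given without a test.

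STC2, a secreted glycoprotein, was the highest member of this group. RD had 787.5, 827.0 and 832.4 FPKM with Scramble and 831.0, 874.9 and 768.3 FPKM with KDM3A-sh2, and these ranges overlapped. In Rh30 it was at 298.7, 306.7 and 255.5 FPKM with Scramble and 173.8, 164.9 and 182.7 FPKM with KDM3A-sh2, all lower. Its RD change was 0.01 (adjusted p = 0.849), its Rh30 change -0.72 (adjusted p = 0.00113), and the difference was called (-0.73, adjusted p = 0.000337).

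DDIT4, an inhibitor of the growth kinase complex mTORC1, was the only member called lower in both lines. It was at 29.6, 30.2 and 30.1 FPKM in RD Scramble and 24.3, 22.5 and 20.7 FPKM with KDM3A-sh2. Rh30 Scramble had 51.5, 52.8 and 48.1 FPKM and Rh30 KDM3A-sh2 32.0, 31.0 and 29.7 FPKM. Every KDM3A-sh2 library was below every Scramble library of its line (-0.40, adjusted p = 0.00269, and -0.70, adjusted p = 0.00033). The difference between lines, -0.30 (adjusted p = 0.0216), was lost without Rh30 Scramble replicate 2 (-0.27) and without Rh30 KDM3A-sh2 replicate 3 (-0.27).

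PPP1R15A, which guides a phosphatase to eIF2, and EIF4EBP1, an inhibitor of cap-dependent translation, rose in RD (0.35 and 0.46) and were at 0.00 and 0.10 in Rh30. SESN2, a leucine sensor, was not called in RD (0.17) or Rh30 (-0.22), but its difference between lines was (-0.38, adjusted p = 0.0173). VLDLR, a lipoprotein receptor, was at 0.246 ± 0.139 FPKM in RD Scramble and 5.5 ± 1.22 FPKM in Rh30 Scramble and was not called in Rh30.

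**Figure D3:**
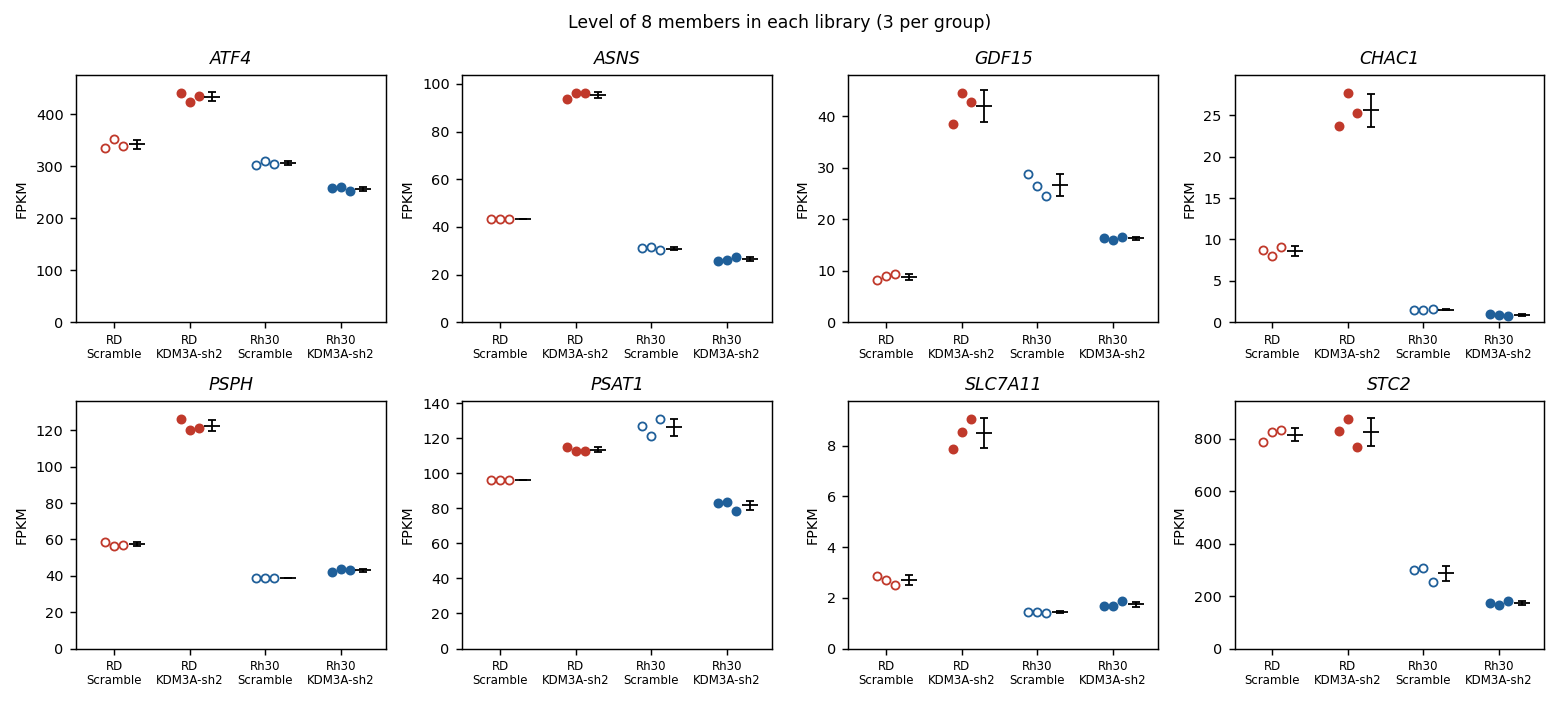
Points give the FPKM of 8 members in each of the 12 libraries, open for Scramble and filled for KDM3A-sh2, red for RD and blue for Rh30, with the mean and SD of each group beside them. ATF4, ASNS, GDF15, CHAC1 and PSAT1 lie higher with KDM3A-sh2 in RD and lower in Rh30, while STC2 overlaps in RD and is lower in Rh30.

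For the serine and folate enzymes the difference between lines was called lower in 7 of 7, against 13.4% of all genes tested. ALDH1L2 is among the 7 but reached the filter through RD alone, so its difference is a description and not a test. PHGDH, PSAT1 and PSPH make serine in sequence from a glycolytic intermediate. PHGDH was at 125.5, 130.2 and 133.7 FPKM in RD Scramble and 227.7, 241.1 and 221.9 FPKM with KDM3A-sh2, and at 158.0, 145.1 and 146.6 FPKM and 162.0, 163.7 and 156.0 FPKM in Rh30. The RD groups were far apart (0.82, adjusted p = 3.3e-05) and the Rh30 groups overlapped (0.10, adjusted p = 0.139). PSPH was at 58.6, 56.4 and 57.0 FPKM in RD Scramble and 126.2, 120.5 and 121.4 FPKM with KDM3A-sh2, and at 38.8, 38.9 and 39.0 FPKM and 42.3, 44.0 and 43.0 FPKM in Rh30. It was higher with KDM3A-sh2 in all libraries of both lines, by 1.09 in RD (adjusted p = 1.24e-05) but only 0.14 in Rh30 (adjusted p = 0.033, and 0.0567 to 0.11 without any 1 of the 6 libraries).

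PSAT1, the middle step, took opposite directions. RD had 96.1, 96.0 and 95.9 FPKM with Scramble and 114.9, 112.8 and 112.8 FPKM with KDM3A-sh2. In Rh30 it was at 126.7, 121.2 and 130.8 FPKM with Scramble and 83.1, 83.4 and 78.4 FPKM with KDM3A-sh2. Neither pair of groups overlapped, and the changes were 0.24 (adjusted p = 0.00104) and -0.62 (adjusted p = 0.000284). The copies PSAT1P3 and PSAT1P4 had means of 12.0 and 9.12 FPKM. Within Rh30, the 3 enzymes of the same short pathway thus had changes of 0.10, -0.62 and 0.14.

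In the mitochondrial folate pathway, SHMT2, which splits serine to glycine, rose in RD (0.32, adjusted p = 0.0007) but fell in Rh30 (-0.17, adjusted p = 0.0203). The fall was lost without Scramble replicate 1 or 2 or any 1 KDM3A-sh2 library (-0.18 to -0.15, adjusted p = 0.0535 to 0.0622). MTHFD2 rose in RD by 0.24 and fell in Rh30 by 0.25 on the log2 scale, and 1 copy of its sequence, MTHFD2P7, was at a mean of 17.2 FPKM. MTHFD1L, which releases formate, was at -0.03 in RD and fell in Rh30 (-0.48, adjusted p = 0.000703). ALDH1L2, which oxidizes formyl folate, was at 2.21, 2.0 and 2.02 FPKM in RD Scramble and at 8.86, 11.3 and 10.0 FPKM with KDM3A-sh2. All 6 Rh30 libraries were under 1 FPKM, from 0.193 to 0.529. Its change in RD was 1.84 (adjusted p = 4.58e-05) and the difference between lines was -1.67, given without a test because the gene reached the filter through RD alone.

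ASNS, asparagine synthetase (ENSG00000070669, chromosome 7 from 97852118 to 97872542), was at 43.5, 43.3 and 43.3 FPKM in RD Scramble and 93.8, 96.2 and 96.2 FPKM with KDM3A-sh2. Rh30 Scramble had 31.1, 31.4 and 30.1 FPKM and Rh30 KDM3A-sh2 25.6, 26.2 and 27.4 FPKM. It was thus far higher with KDM3A-sh2 in RD and slightly lower in Rh30, without overlap, with log2 fold changes of 1.12 and -0.22. The order of the 4 groups, from low to high, was Rh30 KDM3A-sh2, Rh30 Scramble, RD Scramble and RD KDM3A-sh2, and no neighbouring groups overlapped.

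The proline enzymes rose in both lines. PYCR1, the last step of proline synthesis, was at 114.3, 110.8 and 124.9 FPKM in RD Scramble and 189.7, 189.1 and 181.6 FPKM with KDM3A-sh2. In Rh30 it was at 194.6, 188.8 and 169.6 FPKM with Scramble and 236.1, 253.8 and 236.8 FPKM with KDM3A-sh2. All KDM3A-sh2 libraries were higher (0.68, adjusted p = 0.000119, and 0.39, adjusted p = 0.00436). The difference, -0.28 (adjusted p = 0.0266), was lost without any 1 of Rh30 Scramble replicates 1 and 2, Rh30 KDM3A-sh2 replicates 1 and 3, RD Scramble replicates 1 and 2 and RD KDM3A-sh2 replicates 1 and 2 (-0.27 to -0.24). ALDH18A1, the first step, rose by 0.55 and 0.39, and its difference was not called (95% interval -0.33 to -0.01, adjusted p = 0.107). Of the transsulfuration enzymes that make cysteine, CTH rose in RD (0.48, adjusted p = 0.00543) and was at 0.08 in Rh30. CBS fell in RD (-0.32, adjusted p = 0.02), a call lost without RD Scramble replicate 1 or 2 or KDM3A-sh2 replicate 1 (-0.31 to -0.25). A near-identical second entry of CBS was at 3.11 FPKM in RD Scramble and 2.81 FPKM with KDM3A-sh2, so reads could be divided between the entries.

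Of the 7 amino acid transporters, 4 rose in RD (57.1%, against 21.6% of all genes) and 0 fell (against 19.5%). In Rh30, 1 rose and 1 fell (14.3% each), near the 15.3% and 13.2% of all genes. SLC7A11, the cystine and glutamate exchanger, was at 2.88, 2.69 and 2.5 FPKM in RD Scramble and 7.89, 8.56 and 9.05 FPKM with KDM3A-sh2. Rh30 had 1.43, 1.46 and 1.39 FPKM and 1.69, 1.67 and 1.86 FPKM. The change was large in RD (1.36, adjusted p = 7.5e-05) and not called in Rh30 (0.17, adjusted p = 0.322), although the Rh30 groups did not overlap. SLC7A1, a carrier of arginine and lysine, was at 11.0, 10.3 and 10.1 FPKM in RD Scramble and 17.8, 18.0 and 18.7 FPKM with KDM3A-sh2, and at 48.5, 49.9 and 47.1 FPKM and 59.4, 59.5 and 59.1 FPKM in Rh30. It rose without overlap in both lines, by 0.75 (adjusted p = 0.000142) and 0.29 (adjusted p = 0.00288). On the log2 scale the rise was smaller in Rh30 (-0.46, adjusted p = 0.000258), but on unlogged FPKM it was larger there by 3.1 FPKM (F test, adjusted p = 0.0335).

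SLC3A2, the heavy chain that pairs with SLC7A11 and SLC7A5, and SLC1A4, a carrier of small neutral amino acids, rose in RD by 0.17 and 0.28. The SLC3A2 call was lost without RD Scramble replicate 3 or KDM3A-sh2 replicate 1 (0.14 in each), and the SLC1A4 call without KDM3A-sh2 replicate 2 or 3 (0.27 and 0.26). SLC7A5, the carrier of leucine and other large amino acids, was at -0.01 in RD and -0.02 in Rh30, and the glutamine carrier SLC1A5 at 0.05 and 0.07. SLC38A2, a carrier of small neutral amino acids and the highest transporter, was at 0.11 in RD and fell in Rh30 from 237.0 ± 5.52 to 186.1 ± 2.26 FPKM (-0.35, adjusted p = 0.000669).

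The cytosolic tRNA synthetases, which load each tRNA with its amino acid, rose with KDM3A-sh2 in RD for 11 of 12 genes, with a median of 0.41. LARS, for leucine, was the exception (0.08, 95% interval -0.01 to 0.17). In Rh30, 1 rose (AARS), 5 fell (MARS, SARS, NARS, YARS and TARS) and 6 were not called, with a median of -0.12. The difference between lines was called lower for 11 of 12. Among all genes tested, 21.6% rose in RD, 15.3% rose and 13.2% fell in Rh30, and 13.4% had a difference called lower. Summed over the 12 genes, the mean level was 2172.0 FPKM in RD Scramble and 3019.3 FPKM with KDM3A-sh2, and it was 3230.7 and 2870.4 FPKM in Rh30, where MARS alone made up 1735.9 and 1473.0 FPKM.

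CARS, for cysteine, showed the largest rise among them. It was at 48.5, 51.8 and 52.5 FPKM in RD Scramble and 94.0, 98.5 and 94.0 FPKM with KDM3A-sh2, and at 40.0, 42.7 and 41.2 FPKM and 40.0, 36.9 and 35.5 FPKM in Rh30. The RD groups were well apart (0.89, adjusted p = 2.78e-05) and the Rh30 groups touched (-0.14, adjusted p = 0.113). AARS, for alanine, was at 91.6, 95.1 and 101.2 FPKM in RD Scramble and 172.6, 172.2 and 163.1 FPKM with KDM3A-sh2, and at 41.8, 41.8 and 42.2 FPKM and 49.1, 52.0 and 52.4 FPKM in Rh30. It alone of the 12 was called higher in both lines (0.81, adjusted p = 4.82e-05, and 0.28, adjusted p = 0.0043). The pair thus rose by similar amounts in RD and had opposite signs in Rh30, where CARS was not called.

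GARS, for glycine, had 335.7, 358.9 and 370.1 FPKM in RD Scramble, the highest synthetase there, and 626.5, 601.1 and 611.6 FPKM with KDM3A-sh2. In Rh30 it was at 157.1, 176.1 and 173.3 FPKM and 166.9, 166.9 and 167.2 FPKM. It rose in RD (0.79, adjusted p = 3.61e-05) and its Rh30 groups overlapped (-0.01). WARS, for tryptophan, was at 187.2, 196.5 and 189.2 FPKM in RD Scramble and 310.3, 301.0 and 299.0 FPKM with KDM3A-sh2. Rh30 had 156.3, 160.0 and 151.4 FPKM and 147.4, 143.0 and 144.8 FPKM. The KDM3A-sh2 libraries lay above in RD (0.67, adjusted p = 2.78e-05) and below in Rh30, where the change was not called (-0.10, adjusted p = 0.0691) except on either rescaled table (adjusted p = 0.0355 and 0.0454) and without Scramble replicate 3 (adjusted p = 0.0482).

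YARS, for tyrosine, was at 148.8, 141.4 and 149.0 FPKM in RD Scramble and 196.5, 211.7 and 207.6 FPKM with KDM3A-sh2, and at 135.1, 137.2 and 150.8 FPKM and 122.0, 120.9 and 117.0 FPKM in Rh30. The groups were apart in both lines, upward in RD (0.48, adjusted p = 0.000198) and downward in Rh30 (-0.23, adjusted p = 0.0163, and 0.0521 without KDM3A-sh2 replicate 3, with 0.02 to 0.0521 over the libraries left out). MARS, for methionine, was at 190.3, 222.1 and 208.0 FPKM in RD Scramble and 358.2, 345.6 and 301.8 FPKM with KDM3A-sh2. Rh30 had 1667.3, 1931.7 and 1608.7 FPKM and 1498.9, 1471.3 and 1448.7 FPKM. It rose in RD (0.69, adjusted p = 0.000673) and fell in Rh30 (-0.23, adjusted p = 0.0426), but the fall was lost without Scramble replicate 1 or any 1 KDM3A-sh2 library (-0.26 to -0.22).

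The remaining synthetases called in RD moved less there. NARS (asparagine), EPRS (glutamate and proline), TARS (threonine), IARS (isoleucine) and SARS (serine) rose in RD by 0.34, 0.31, 0.22, 0.19 and 0.11. The SARS call in RD was lost without any 1 of the Scramble libraries or KDM3A-sh2 replicate 1 or 2 (adjusted p = 0.0503 to 0.0798), and that of EPRS without Scramble replicate 2 or 3 (0.28 in each). In Rh30, TARS, SARS and NARS fell by 0.24, 0.16 and 0.10 on the log2 scale, and TARS had the lowest estimate of the 12. The NARS call there was lost without any 1 library (adjusted p = 0.0819 to 0.139), and the SARS call without Scramble replicate 1 or KDM3A-sh2 replicate 1 or 3 (adjusted p = 0.052 to 0.059).

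**Figure D4:**
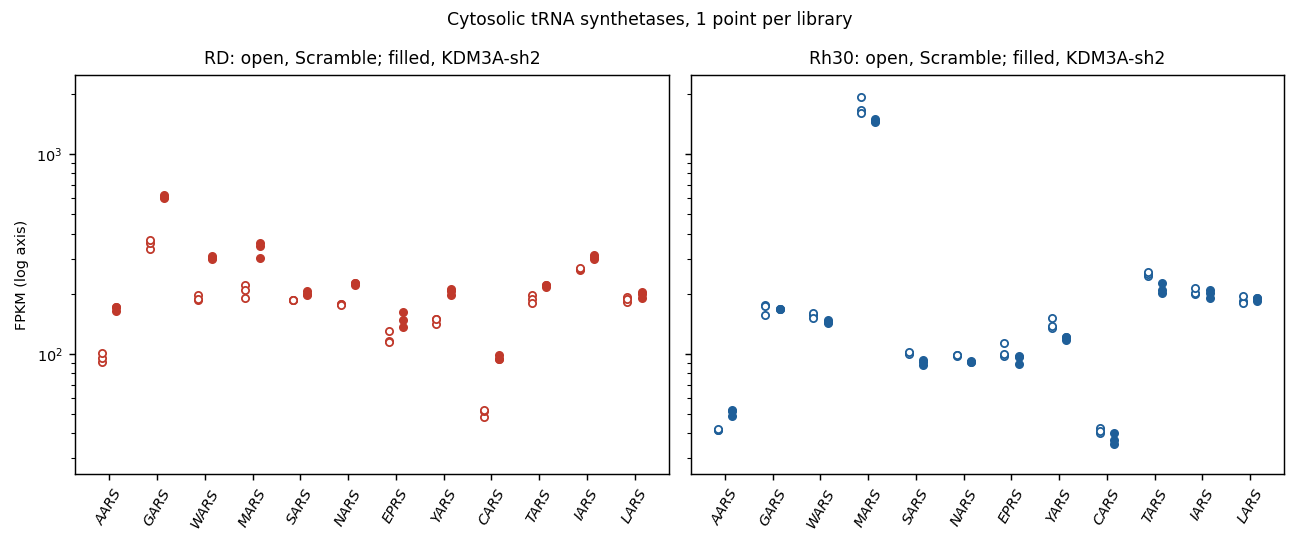
Points give the FPKM of the 12 cytosolic tRNA synthetases on a log axis, 1 per library, open for Scramble and filled for KDM3A-sh2, RD at left and Rh30 at right. In RD the filled points lie above the open ones for all but LARS, and in Rh30 AARS alone lies wholly above while MARS is far higher than in RD.

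The starting levels also differed between the lines. In Scramble libraries, 16 members were higher in Rh30 than in RD and 25 lower, of 43 tested, with a median of -0.30 against -0.04 over all 18357 genes, where 74.5% were called, 35.0% higher and 39.6% lower. The share called lower was 58.1% and that called higher 37.2%. CHAC1 (-1.92), CEBPB (-1.83), PPP1R15A (-1.65) and STC2 (-1.51) were among the members lower in Rh30, and SHMT2 (3.84), MARS (3.06), VLDLR (2.37), SLC7A1 (2.11) and DDIT3 (1.41) among those higher. ATF4 itself differed little (-0.16, adjusted p = 0.003), and LARS and YARS were not called (-0.00 and -0.06). GDF15 was higher in Rh30 (1.49) and ASNS lower (-0.48). NUPR1 was under the filter, and ALDH1L2 and VLDLR passed it only through the line where they are high. Without those members 15 were higher and 24 lower, and the VLDLR difference was 4.06 with a pseudocount of 0.1.

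**Figure D5:**
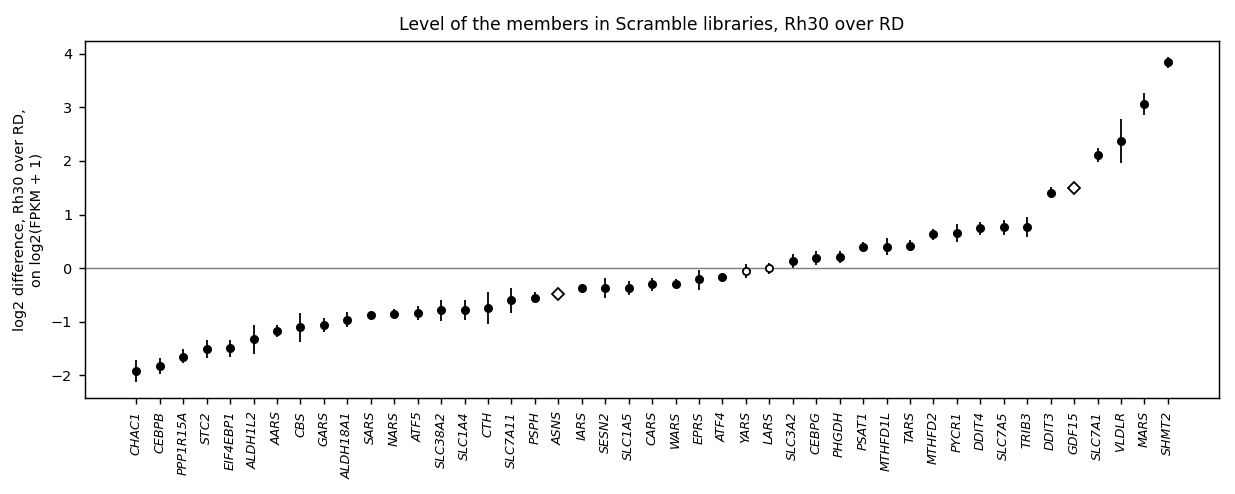
Points give the log2 difference between Rh30 and RD Scramble libraries on log2(FPKM + 1) with 95% confidence intervals from limma (3 libraries per group), filled where called, and diamonds mark ASNS and GDF15, which were not tested. SHMT2 and MARS stand at the top with 3.84 and 3.06, and CHAC1 at the bottom with -1.92.

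SHMT2, MARS and DDIT3, which had higher values in Rh30 than in RD, lie near each other in the genome. SHMT2 lies on chromosome 12 from 57229327 to 57234935, MARS from 57475445 to 57517569 and DDIT3 from 57516588 to 57521737. CDK4, a cell cycle kinase, follows from 57747727 to 57756013 and was at 654.9 ± 29.2 FPKM in RD Scramble and 14661.2 ± 479.0 FPKM in Rh30 Scramble. The part of gene copy number in these levels was not tested. MARS and DDIT3 run in opposite directions and overlap by 982 bases, and since the strand setting of the counting is not stated, reads in that stretch cannot be told apart.

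Genes of the same pathways outside the set were counted as background. These lists too were chosen with earlier results of these data known, so they are no independent check of the set. Each count is to be read against the shares of all genes, 21.6% higher and 19.5% lower in RD and 15.3% and 13.2% in Rh30. Of 8 other cytosolic synthetases, 3 rose in RD (DARS by 0.39, HARS and VARS by 0.15 each) and 0 fell, with a median of 0.08, and 0 were called in Rh30. Of 17 mitochondrial synthetases, 2 rose and 2 fell in RD (11.8% each), and 2 rose and 0 fell in Rh30. Of 11 further ATF4 targets, 8 rose (72.7%) and 1 fell in RD, led by the glycine carrier SLC6A9 (2.16), ADM2 (1.82) and the transcription factor ATF3 (0.72), and of 9 tested in Rh30, 0 rose and 3 fell, led by JDP2 (-0.74). In the eIF2 pathway, 3 of 17 genes rose and 3 fell in RD (17.6% each, near the shares of all genes). The rises were EIF2AK3 (0.87), EIF2S2 (0.37) and EIF2AK4 (0.27), and the falls EIF2S3 (-0.57), EIF2B2 (-0.26) and EIF2S1 (-0.21). In Rh30, 0 of these 17 genes rose and 4 fell (23.5%). The 13 other enzymes of serine, glycine, folate, proline and glutamate metabolism gave 2 higher and 5 lower in RD, and 2 higher and 2 lower of 11 tested in Rh30. Of 8 genes of amino acid sensing upstream of mTORC1, 4 rose and 1 fell in RD, led by CASTOR1 (0.86), and 2 rose and 1 fell in Rh30. The 3 scaffolds of the multisynthetase complex gave 0 higher and 1 lower in RD, and 1 higher and 0 lower in Rh30.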

How the data were processed

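Per the labels and Methods, directional libraries of polyA RNA were sequenced from 1 end (50 cycles in the Methods, longer reads in the labels), and the authors aligned reads to GRCh38 with GSNAP and SAMtools and deposited FPKM from Cufflinks. The annotation release and strand setting are not given in the sources used here. All 12 columns matched 1 sample each. FPKM are not counts, so limma 3.58.1 in R 4.3.3 (lmFit, eBayes with trend) was run on log2(FPKM + 1) keeping genes whose mean over the fitted libraries reached 1 FPKM, for each line alone, Scramble alone, and all 12 libraries for the interaction. P-values are two-sided with Benjamini-Hochberg adjustment (threshold 0.05). Of 66095 entries, 120 repeats were left out (higher mean kept). In 17 genes, none a member, the value 999999999 was read as missing. The fit was tested on simulated data. Motifs, tables and figures used Python 3.11.15, pandas 2.3.3 and matplotlib 3.10.9 with RefSeq promoter windows.

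Members and lists were chosen with earlier results of these data known. ATF4, ASNS and GDF15, and members called with a change of at least 0.58 in a line or between lines, are given by library (20 genes), the others by role. Alternatives were a pseudocount of 0.1, 2 filters, 2 rescalings, ANOVA on unlogged FPKM, a replicate block, each library left out, a fold threshold and, for Scramble, the fit of all libraries.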

Additional observations from a re-analysis of the deposited data

Results flagged for a closer look

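Between the lines, KDM3A-sh2 had unequal effects by the interaction test of limma (adjusted p under 0.05 over all genes tested) in 33 members, and in every one of these the log2 effect was lower in Rh30. Each value is the Rh30 effect less the RD effect on the log2 scale. Among the transcription factors they were ATF4 -0.59, CEBPG -0.57 and NUPR1 -1.22. Among the stress effectors they were DDIT4 -0.30, SESN2 -0.38, CHAC1 -1.92, PPP1R15A -0.35, EIF4EBP1 -0.35 and STC2 -0.73. Among the serine and folate enzymes they were PHGDH -0.72, PSAT1 -0.86, PSPH -0.94, SHMT2 -0.50, MTHFD2 -0.49, MTHFD1L -0.44 and ALDH1L2 -1.67. For the proline enzyme it was PYCR1 -0.28. Among the transporters they were SLC7A11 -1.19, SLC3A2 -0.25, SLC7A1 -0.46, SLC38A2 -0.46 and SLC1A4 -0.50. Among the synthetases they were AARS -0.53, GARS -0.80, WARS -0.77, MARS -0.93, SARS -0.28, NARS -0.44, EPRS -0.44, YARS -0.71, CARS -1.03, TARS -0.46 and IARS -0.23. ALDH1L2 reached the filter through RD alone, so its value is a description. The fall of KDM3A RNA itself was smaller in Rh30, and its part in these values was not tested. With 3 libraries per group, no sample was screened as standing apart from its group.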

How the results depend on the processing

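Without a filter, with a filter of 10 FPKM (reached by at least 1 library), with a pseudocount of 0.1 and on both rescaled tables, every count of called members stayed within 1.5 times its value. The pseudocount of 0.1 moved low genes, NUPR1 from 1.92 to 3.0 in RD, from 0.69 to 1.05 in Rh30 and from -1.22 to -1.94 for the difference, CHAC1 from -0.45 to -0.78 in Rh30, and VLDLR from 2.37 to 4.06 and ALDH1L2 from -1.33 to -2.75 in Scramble. Counts without members that reached the filter through 1 side only, an alternative chosen after seeing the data, differed by at most 1. Rescaling to the same sum moved the median of all genes in Scramble by -0.10 on the log2 scale, and 13 members were then higher in Rh30. A threshold of 0.58 on the log2 fold change left 13 higher and 0 lower in RD, 1 and 3 in Rh30, 14 lower in the difference between lines and 10 higher in Rh30 Scramble. ANOVA on unlogged FPKM gave 2 members with a higher effect in Rh30, 1 of them SLC7A1 with a reversed difference of 3.1 FPKM.

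Leaving out 1 library at a time gave 29 to 31 higher and 1 to 2 lower in RD, 6 to 6 higher and 8 to 13 lower in Rh30, 0 to 0 higher and 31 to 33 lower for the difference, and 14 to 16 higher and 23 to 25 lower in Scramble. STC2 in RD ran from -0.03 to 0.06 and GARS in Rh30 from -0.06 to 0.02, so the sign of neither is given by these libraries. The causes were not tested.

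Same-numbered libraries did not deviate together (r = -0.074 to -0.009). Whether they were grown or prepared together is not stated and cannot be told from these correlations. With the replicate block, 29 members were higher and 2 lower in RD, 6 and 9 in Rh30, 0 and 30 for the difference, and 14 and 24 in Scramble. It ended the calls of 3 members in RD and 7 in Rh30, and those of EPRS, IARS and PYCR1 for the difference. On unlogged FPKM the difference of SLC38A2 was not called (adjusted p = 0.0871). The number of reads is not in FPKM, so depth limits low genes such as NUPR1 and CHAC1 by an unknown amount.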
